A study of Mus musculus with 9 samples.

Results

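The nuclear-encoded subunits of oxidative phosphorylation (OXPHOS) were followed in ribosome footprints of striatal cells. Members were the rows of the count table whose gene symbol belongs to the families Nduf (letters a, b, c, s and v), Sdha to Sdhd, Uqcr, Cox (families 4 to 8) or Atp5, together with Cyc1 and Cycs. Assembly factors named Ndufaf and pseudogenes were left out by the same rule. It chose by name and used no measured value. It found 87 members among 36410 rows. They were 36 rows of complex I, 4 of complex II, 9 of complex III, cytochrome c, 20 of complex IV and 17 of complex V. Ndufa4 and Ndufa4l2 carry complex I names and are counted here in complex IV, where Ndufa4 resides. Atp5s was kept by its name although it is known as a coupling factor and not as a subunit. A filter on low counts was passed by 80 members, and the other 7 were complex IV isoforms with almost no counts.

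The study compared 3 immortalized striatal lines of mouse embryos (strain C57/BL6), which carry knock-in alleles of huntingtin, the gene mutated in Huntington disease. The control line (Q7/Q7) encodes 7 glutamines on both alleles, HD-het (Q7/Q111) encodes 7 on 1 allele and 111 on the other, and HD-homo (Q111/Q111) encodes 111 on both. Each genotype was 1 cell line with 3 libraries, so genotype and line history cannot be told apart, and p-values measure only the spread between these libraries, which may be technical. All 9 libraries came from cells given cycloheximide for 10 min before lysis, and fragments of 26 to 32 nt were taken from the monosome fraction.

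OXPHOS turns the oxidation of nutrients into ATP in the inner mitochondrial membrane. Complexes I and II take electrons from NADH and succinate, complex III hands them to cytochrome c, complex IV passes them to oxygen, and ATP synthase (complex V) uses the resulting proton gradient. Most subunits are encoded in the nucleus, translated on cytosolic ribosomes and imported, and they must meet the few subunits made inside mitochondria. The mitochondrially encoded subunits were not analysed here. Reduced activity of complexes II and III is known from the striatum of patients with Huntington disease.

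Library totals ran from 22504543 to 41888701 counts of footprints per library. A count of 0 allows a true count of up to 3, which equals 0.0716 to 0.133 CPM (counts per 1000000 counts of the library) and covers counting error only. CPM values of single genes are given on TMM-scaled totals, TMM being edgeR's scaling of libraries, while densities per coding kilobase use the plain totals. The tested members lay far above the limit of a count of 0, with at least 132 counts in every library. The median coefficient of variation of their CPM over 3 libraries was 4.86% for control, 6.19% for HD-het and 10.1% for HD-homo. The label of striatal cells was only partly borne out by markers: Drd1 and Drd2, the dopamine receptors of striatal neurons, were at 0 in all libraries, and the list of 11 striatal neuron markers summed to between 67.8 and 92.0 CPM. Other cell identities differed between the lines. The 6 mesenchyme markers summed to 6404 to 9163 CPM for control, 25459 to 27749.7 CPM for HD-het and 5568 to 7077 CPM for HD-homo. The 4 neural precursor markers summed to 9583 to 9851, 8988 to 9818 and 5988 to 6521 CPM, and all 4 fell in HD-homo against control. Their median log2 fold change there was -5.15, so the sum hides far larger falls of single markers. In HD-het against control 2 of them rose and 1 fell. Of the mesenchyme markers 5 were tested, and all 5 were higher in HD-het than in control. The microglia list summed to 4.93 to 6.65 CPM for control, 18.6 to 26.8 CPM for HD-het and 4.63 to 6.17 CPM for HD-homo. Markers of neurons in general reached 156 CPM at most, those of astrocytes 13.8, endothelium 2.18 and the oligodendrocyte lineage 0.532. The part of these differences in the results below was not tested. In such bulk libraries fewer cells with a transcript and less of it per cell cannot be told apart, and every value is a footprint abundance, not a ratio to mRNA.

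As a whole, OXPHOS members took a smaller share of footprints in HD-het than in either other line. They held 1.79% ± 0.046 of all counts (SD, n = 3 libraries) for control, 1.38% ± 0.036 for HD-het and 1.78% ± 0.044 for HD-homo. The HD-het libraries, at 1.41%, 1.41% and 1.34%, lay below every control and HD-homo library. Complex V held the largest part, 0.723% ± 0.019 for control, 0.526% ± 0.02 for HD-het and 0.697% ± 0.037 for HD-homo. Complexes I, III and IV and cytochrome c were lowest in HD-het as well. Complex II did not: its share was 0.0488% ± 0.0018 for control, 0.0477% ± 0.0026 for HD-het and 0.0450% ± 0.0042 for HD-homo, and the libraries of the 3 lines overlapped. These sums over chosen members are a description, with no test.

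**Figure D1:**
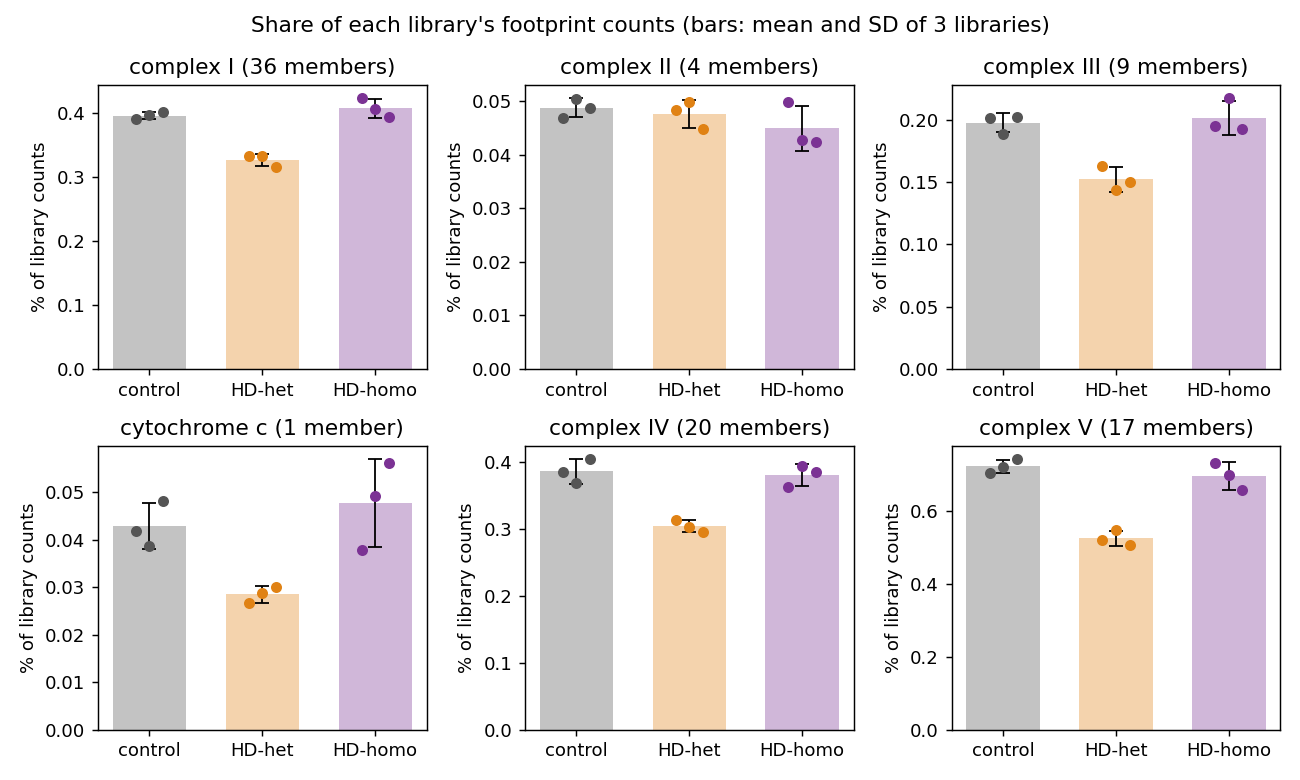
Share of each library's footprint counts, in percent, held by the members of each complex, in control, HD-het and HD-homo; points are libraries, bars are means and error bars SDs of 3 libraries. HD-het is lowest in every panel except complex II, for example 0.526% against 0.723% in control for complex V.

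In HD-het against control, 38 of 80 tested members fell, 4 rose and 38 did not pass the threshold (edgeR adjusted p below 0.05 over 12678 genes). Over all tested genes 29.1% were lower and 31.0% higher in this comparison, or 60.1% in either direction beside 52.5% of the members. The median log2 fold change was -0.20 over the members and 0.019 over all genes. The members that fell came from complexes I, III, IV and V and included Cyc1, Cycs, Cox6c and Atp5g2, while none of the 4 complex II subunits was called. The HD-het and control libraries did not overlap for 57 members (71.2%), about the 71.2% of all genes. Most falls were modest: only Atp5g2 was at least 2-fold lower, against 6.91% of all genes, and only Ndufv3 was at least 2-fold higher, against 13.9%.

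In HD-homo against control the members were split, with 14 that rose, 17 that fell and 49 that did not pass. The 14 that rose became 7 without control replicate 1 and 9 without control replicate 2 or 3. The shares over all genes were 23.3% higher, 22.3% lower and 45.7% in either direction. Libraries of both lines did not overlap for 38 members (47.5%) and 55.5% of all genes. A change of at least 2-fold was called for 1 member, Ndufv3, beside 8.94% of all genes higher and 8.27% lower by that much, and the median log2 fold change of the members was 0.0066. In HD-homo against HD-het 42 members were higher and 9 lower, beside 34.6% and 32.8% of all genes, and the members' median was 0.22. These 3 comparisons share libraries and are not independent. A test of any difference among the 3 lines was passed by 61 of 80 members, beside 78.4% of all genes.

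**Figure D2:**
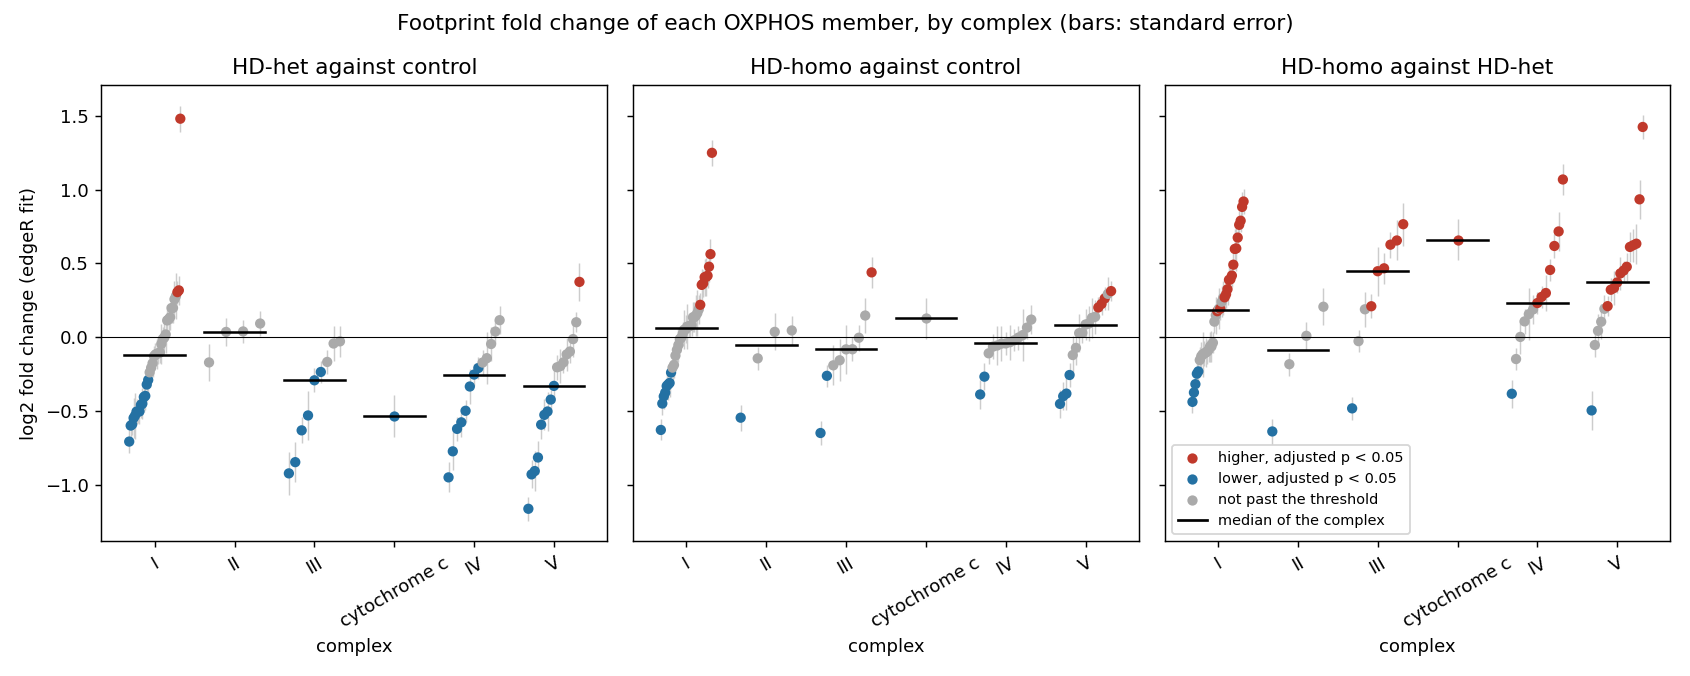
Fitted log2 fold change (y axis) of each tested OXPHOS member, grouped by complex (x axis), in the 3 comparisons; error bars are standard errors, black lines medians, and colours show calls at an edgeR adjusted p below 0.05. In HD-het against control the medians of complexes III, IV and V lie at -0.29, -0.25 and -0.33, while that of complex II lies at 0.038; Ndufv3 stands alone at the top of complex I in both comparisons with control.

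The direction of the whole group depended on whether the trend of all genes on coding length was taken out. OXPHOS coding sequences are short, with a median of 423 nt against 1412 nt over all tested genes, while their median GC content, 53.2%, was close to the 53.0% of all genes. Short genes in general were lower in HD-het. Among all tested genes under 500 coding nt the median log2 fold change against control was -0.32, and it was 0.052 among longer ones. The 48 members under 500 nt had a median of -0.21, and the 11 of at least 1000 nt had one of -0.17 with 1 higher and 4 lower. Members between these 2 classes are in neither median. All 68 members under 1000 nt together had a median of -0.22, with 3 higher and 34 lower. Across the 79 members with a length, the fold change had a Spearman rho of 0.070 and a Pearson r of 0.16 with coding length. Genes that share libraries are not independent, and these values are a description. When each library's trend on coding length and GC was taken out as an offset, 26 members were higher and 21 lower in HD-het than in control (all genes 31.3% and 30.3%), and the median was 0.046. HD-homo against HD-het then gave 17 higher and 38 lower members (all genes 34.4% and 33.3%), with a median of -0.14, so that the direction of the group turned in both comparisons. In HD-homo against control the counts with offsets were 10 higher and 18 lower (all genes 23.2% and 23.4%). By complex, HD-het against control then had 13 higher and 8 lower members in complex I, 3 and 4 in complex III, 6 and 2 in complex IV and 3 and 7 in complex V. The offsets need a coding length and covered 79 members, all but Ndufb4c. Whether the length trend belongs to the cells or to the libraries was not tested.

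Most single falls in HD-het depended on the offsets too. Of the 38 that fell in HD-het, 18 were still lower with the offsets, and they were Atp5b, Atp5d, Atp5f1, Atp5g1, Atp5g2, Atp5h, Cox6c, Cox7a2l, Cyc1, Ndufa10, Ndufa12, Ndufb10, Ndufb9, Ndufs4, Ndufs7, Ndufv1, Uqcrc1 and Uqcrfs1. Another 3, Cox7b, Ndufa4 and Uqcr10, were called higher instead, and the other 17 lost the call. All 4 members that rose, Ndufv3, Ndufb11, Ndufa13 and Atp5s, were still higher. For HD-homo against control, all 17 members that fell kept the call and 10 of the 14 that rose did. The account of each complex below says where a named member lost its call in this way. Calls gained with the offsets are given there for some members only. Several kept members, among them Atp5h, Ndufa12 and Cox6c, have most of their 26-base coding stretches elsewhere in the genome too. Their counts may hold reads of copies.

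**Figure D3:**
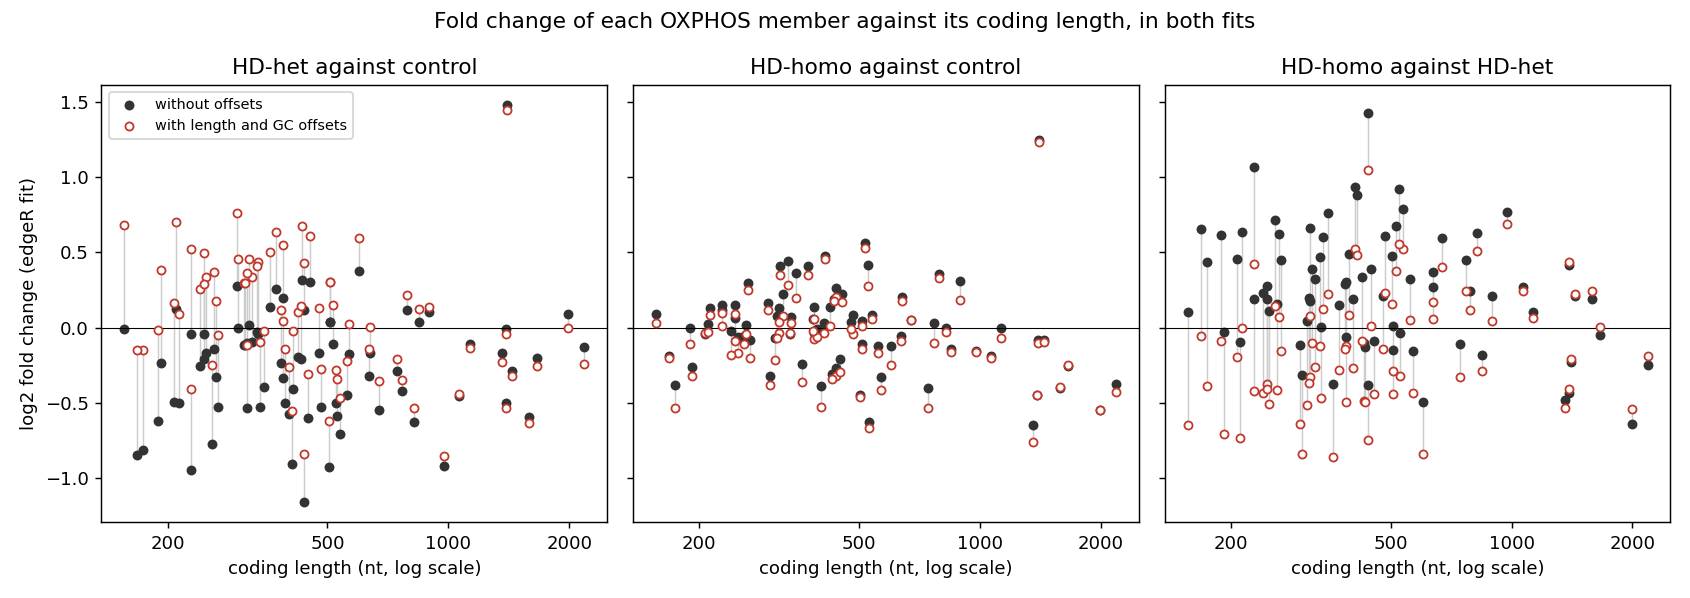
Log2 fold change of each OXPHOS member (y axis) against its coding length in nt (log-scaled x axis) in the 3 comparisons; filled points are fits without offsets, open points fits with length and GC offsets, and grey lines join both values of a member. The gap between both fits is widest for the shortest coding sequences and small above about 1000 nt, where Ndufv3 keeps values of 1.48 and 1.45 in HD-het. Each member, Ndufv3 included, is placed by its longest coding sequence.

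Footprint levels were compared between members only per coding length, as CPM per coding kilobase. In control cells the median density was 238 for complex I, 183 for complex II, 739 for complex III, 636 for complex V and 969 for complex IV, and cytochrome c stood at 1361 CPM per kb. Complex I and II members thus had lower median densities than those of complexes III to V. Within complex I the range ran from 12.4 for Ndufv3 to 612 for Ndufa12. The value of Ndufv3 divides by its longest coding sequence, 1404 nt, and would be higher for a shorter form. The densest of all members in control was Cox6b1 at 2291 CPM per kb, and the sparsest was Atp5s at 10.5. Complex IV had the highest median of the complexes in the mutant lines too, at 761 in HD-het and 965 in HD-homo, and complexes I and II the lowest, at 189.7 and 170.4 in HD-het and 205 and 192 in HD-homo. Complexes III and V lay between and changed places, with 571 and 444 in HD-het and 628 and 681 in HD-homo.

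**Figure D4:**
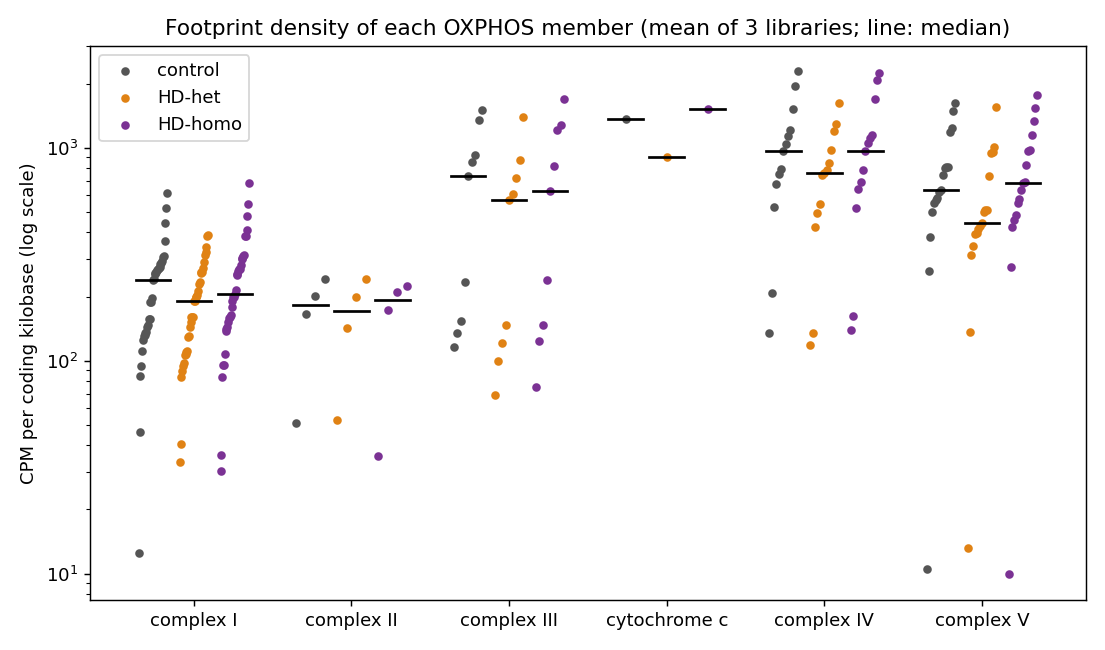
Footprint density of each tested OXPHOS member in CPM per coding kilobase (log-scaled y axis), by complex (x axis) and line (colours); each point is the mean of 3 libraries and black lines are medians. Complexes I and II have the lowest medians in control, 238 and 183 CPM per kb, and complex IV the highest of the complexes at 969.

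Complex I, the NADH dehydrogenase, held the largest change against control of any member. Ndufv3, a small accessory subunit at the NADH-oxidising tip (chr17:31520115-31531326 in GRCm38.p6), counted 16.9, 18.0 and 17.2 CPM in the 3 control libraries, 51.9, 44.5 and 49.0 CPM in HD-het and 41.1, 43.1 and 39.6 CPM in HD-homo. Both mutant lines lay above control with no overlap. The rise was 2.79-fold in HD-het (log2 fold change 1.48 ± 0.088 (SE), edgeR adjusted p = 2.48e-07) and 2.38-fold in HD-homo (log2 fold change 1.25 ± 0.088 (SE), edgeR adjusted p = 5.95e-07). Ndufv3 is known to give a short and a long protein by skipping or keeping 1 large exon, and the gene counts do not separate them. Its density and its offsets rest on the longest coding sequence. No 26-base stretch of its coding sequence occurs elsewhere in the genome, 26 nt being the shortest footprint.

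The core subunits that carry electrons through complex I did not move together. Ndufv1, which binds NADH and the flavin, fell in HD-het (log2 fold change -0.50, edgeR adjusted p = 0.000213) and stood at -0.085 in HD-homo against control without passing. Ndufs7, the subunit beside the ubiquinone site, fell in HD-het as well (-0.55, edgeR adjusted p = 0.00457). By contrast Ndufs1, the largest iron-sulfur subunit, counted 99.0, 103 and 97.5 CPM in the 3 control libraries, 85.7, 93.4 and 94.8 CPM in HD-het and 76.4, 77.7 and 76.7 CPM in HD-homo. Its HD-homo libraries lay below all others, and the fall against control was -0.37 (edgeR adjusted p = 0.00137). With the offsets Ndufs1 was called lower in HD-het as well, at -0.24 (edgeR adjusted p = 0.0108). Ndufv2 fell in both lines, by 0.29 in HD-het and 0.40 in HD-homo on the log2 scale (edgeR adjusted p = 0.0121 and 0.0027). Ndufs3, which helps to hold the core together, rose in HD-homo against control (0.35, edgeR adjusted p = 0.0175). Ndufs8 fell in HD-het (-0.32, edgeR adjusted p = 0.0296). The HD-het calls of Ndufv2 and Ndufs8 were lost with the offsets, at -0.21 (edgeR adjusted p = 0.0527) and -0.14 (edgeR adjusted p = 0.254).

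Among accessory subunits, Ndufs4, whose loss in mice gives a Leigh-like brain disease, differed between all 3 lines. It counted 79.7, 87.1 and 79.4 CPM in the 3 control libraries, 55.4, 63.1 and 55.3 CPM in HD-het and 113, 111 and 104 CPM in HD-homo, so that HD-het lay below and HD-homo above control with no overlap. The log2 fold changes were -0.50 in HD-het and 0.42 in HD-homo against control, and 0.92 between the mutant lines (edgeR adjusted p = 0.000339, 0.00169 and 2.54e-06). Ndufb7 of the membrane arm and Ndufa5 of the peripheral arm had the same order. Ndufb7 counted 109, 116 and 109 CPM in the 3 control libraries, 87.6, 78.8 and 86.3 CPM in HD-het and 179.5, 138 and 148 CPM in HD-homo. Ndufa5 counted 189, 171 and 183 CPM in the 3 control libraries, 142, 129 and 141 CPM in HD-het and 204, 248 and 248 CPM in HD-homo. With the offsets the falls of these 2 genes in HD-het were -0.026 (edgeR adjusted p = 0.817) and -0.025 (edgeR adjusted p = 0.783), no longer called, while Ndufs4 stood at -0.28 (edgeR adjusted p = 0.017).

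The largest fall of complex I in HD-het was that of Ndufb9, a membrane arm subunit, which counted 231, 236 and 243 CPM in the 3 control libraries, 154, 136 and 146 CPM in HD-het and 255, 239 and 257 CPM in HD-homo. HD-het lay below the other lines, and HD-homo overlapped control. In HD-homo the largest fall of complex I was that of Ndufb10, with 161, 159 and 168 CPM in the 3 control libraries, 113, 103 and 109 CPM in HD-het and 104, 105 and 107 CPM in HD-homo. Both mutant lines had about the same level, -0.59 and -0.63 against control on the log2 scale (edgeR adjusted p = 3.48e-05 and 2.78e-05). In all, 3 of the 36 complex I rows rose and 14 fell in HD-het, and 9 rose and 8 fell in HD-homo against control. Over all genes 31.0% rose and 29.1% fell in HD-het, and 23.3% rose and 22.3% fell in HD-homo. Ndufb4 and Ndufb4c count as 2 rows, but their counts differed by at most 5 in any library and the whole Ndufb4 coding sequence of 387 nt lies inside the Ndufb4c locus, so both rows hold the same fragments. Neither was called without the offsets. With them Ndufb4, the row with a coding length, was at 0.55 (edgeR adjusted p = 0.000299) in HD-het and -0.49 (edgeR adjusted p = 0.000499) between the mutant lines.

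The 3 other members that rose in HD-het were small. Ndufa13, also known as the cell death regulator GRIM-19, counted 106, 94.1 and 111 CPM in the 3 control libraries, 140.5, 113 and 134 CPM in HD-het and 113, 124 and 118 CPM in HD-homo. Ndufb11 counted 61.8, 60.7 and 59.2 CPM in the 3 control libraries, 76.2, 69.6 and 78.8 CPM in HD-het and 73.9, 66.9 and 70.7 CPM in HD-homo. HD-het lay above control for both, with log2 fold changes of 0.32 and 0.31 (edgeR adjusted p = 0.0161 and 0.00562), and Ndufb11 rose in HD-homo as well (0.22, edgeR adjusted p = 0.0392), a call that was lost with the offsets. Atp5s, the coupling factor of complex V, rose in HD-het (0.38, edgeR adjusted p = 0.0252) from a level of at most 6.72 CPM in control. In HD-homo the accessory subunit Ndufa8 had one of the wider rises, with 136, 124 and 134 CPM in the 3 control libraries, 115, 132 and 117 CPM in HD-het and 192, 171 and 218 CPM in HD-homo. Every HD-homo library lay above every other library, and the log2 fold changes were 0.56 against control and 0.67 against HD-het (edgeR adjusted p = 0.000808 and 0.000109), both kept with the offsets. Ndufs5 and Ndufs6 rose in HD-homo against control too, each by 0.41 on the log2 scale (edgeR adjusted p = 0.0205 and 0.0204).

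Complex II, succinate dehydrogenase, also belongs to the citric acid cycle and has no mitochondrially encoded subunit. None of its 4 genes was called in HD-het against control, except Sdhc with the offsets, at 0.30 (edgeR adjusted p = 0.0221). Sdha, the flavoprotein that oxidises succinate, counted 96.0, 106 and 101 CPM in the 3 control libraries, 107, 105 and 111 CPM in HD-het and 75.5, 70.7 and 61.7 CPM in HD-homo. The HD-homo libraries lay below all 6 others, a fall of 0.54 against control and 0.64 against HD-het on the log2 scale (edgeR adjusted p = 0.000397 and 6.14e-05), and both calls were kept with the offsets. Its partners did not follow it past the threshold against control. In HD-homo the iron-sulfur subunit Sdhb stood at -0.14 (edgeR adjusted p = 0.16), and the membrane anchors Sdhc and Sdhd at 0.046 and 0.037 (edgeR adjusted p = 0.73 and 0.839). The offsets added no call there. Between the mutant lines no partner was called without the offsets. With them Sdhb and Sdhc were lower in HD-homo than in HD-het, both at -0.29 (edgeR adjusted p = 0.00549 and 0.0241), while Sdhd stood at -0.14 (edgeR adjusted p = 0.329). The density of Sdhb over that of Sdha, a ratio within each library, was 4.77 ± 0.276 (SD, n = 3) for control, 4.59 ± 0.358 for HD-het and 6.31 ± 0.371 for HD-homo. All HD-homo libraries exceeded all others in this ratio.

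Complex III passes electrons from ubiquinol to cytochrome c. In HD-het 6 of its 9 genes fell and none rose, beside 29.1% of all genes lower and 31.0% higher. Cyc1, the cytochrome c1 that holds the haem facing cytochrome c, counted 127, 139 and 127 CPM in the 3 control libraries, 65.2, 62.5 and 80.1 CPM in HD-het and 147, 101 and 105 CPM in HD-homo. HD-het lay at 0.528 times control (log2 fold change -0.92 ± 0.14 (SE), edgeR adjusted p = 0.000229), with no overlap. The Rieske iron-sulfur protein Uqcrfs1 fell by 0.63 in HD-het and the core protein Uqcrc1 by 0.29 on the log2 scale (edgeR adjusted p = 9.94e-05 and 0.00869). The other core protein, Uqcrc2, counted 154, 159.8 and 154 CPM in the 3 control libraries, 134, 139 and 144 CPM in HD-het and 108, 97.6 and 92.5 CPM in HD-homo. It was lowest in HD-homo, where it fell by 0.65 against control on the log2 scale (edgeR adjusted p = 5.19e-05), and HD-het stood between both, at -0.17 (edgeR adjusted p = 0.0894). With the offsets Uqcrc2 was called lower in HD-het too, at -0.23 (edgeR adjusted p = 0.0344). Uqcrb, a small subunit near the ubiquinone pocket, was the single complex III gene that rose in HD-homo against control, at 0.44 (edgeR adjusted p = 0.00478). Its 26-base stretches occur elsewhere in the genome for 93.2% of its coding sequence, so its count may hold reads of copies. Those of Cyc1, Uqcrfs1 and Uqcrc2 occur nowhere else.

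The small complex III subunits were divided. Uqcr11 counted 239, 215 and 222 CPM in the 3 control libraries, 149.7, 101 and 126 CPM in HD-het and 213, 208 and 171 CPM in HD-homo. HD-het lay below both other lines (-0.85, edgeR adjusted p = 0.000271). Uqcrh, the hinge protein that contacts cytochrome c1, fell in HD-het as well (-0.53, edgeR adjusted p = 0.0161), but its HD-homo libraries spread from 166 to 255 CPM. Both HD-het calls were lost with the offsets, at -0.15 (edgeR adjusted p = 0.317) and -0.048 (edgeR adjusted p = 0.773). Uqcrq was not called in any comparison without offsets, with 394, 341 and 364 CPM in the 3 control libraries, 374, 297 and 396 CPM in HD-het and 361, 441 and 415 CPM in HD-homo. Its log2 fold change in HD-het was -0.042 without and 0.50 (edgeR adjusted p = 0.00157) with the offsets, so that whether it was called depended on them.

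Cytochrome c (Cycs), the soluble carrier between complexes III and IV that also triggers apoptosis once released, counted 424, 385 and 469 CPM in the 3 control libraries, 270.1, 289 and 324 CPM in HD-het and 369.9, 467 and 561 CPM in HD-homo. HD-het lay below control and HD-homo without overlap (log2 fold change -0.53 ± 0.14 (SE), edgeR adjusted p = 0.00646). The fall was -0.11 (edgeR adjusted p = 0.415) with the offsets, no longer called. All 26-base stretches of the Cycs coding sequence occur elsewhere in the genome, which limits how far this row counts the Cycs gene alone.

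Complex IV, cytochrome c oxidase, reduces oxygen. Of its 13 tested genes 8 fell in HD-het and none rose, and in HD-homo 2 fell against control. Over all genes 29.1% fell and 31.0% rose in HD-het, and 22.3% fell in HD-homo. Cox4i1, the nuclear subunit that binds ATP as a regulator, was not called, its log2 fold change against control being 0.039 for HD-het and -0.11 for HD-homo. With the offsets it was called higher in HD-het, at 0.30 (edgeR adjusted p = 0.00267). Cox6c, a small membrane subunit, counted 354, 309 and 374 CPM in the 3 control libraries, 177, 166 and 195 CPM in HD-het and 338, 402 and 386 CPM in HD-homo. HD-het lay at 0.518 times control (log2 fold change -0.95 ± 0.10 (SE), edgeR adjusted p = 1.53e-05), and HD-homo overlapped control. The call in HD-het was kept with the offsets, at -0.41 (edgeR adjusted p = 0.000827). Cox5a, a matrix-side subunit, counted 322, 353 and 313 CPM in the 3 control libraries, 338, 373 and 358 CPM in HD-het and 299, 242 and 279.9 CPM in HD-homo. It went the other way, lower in HD-homo than in HD-het by 0.38 on the log2 scale (edgeR adjusted p = 0.00347), while its matrix partner Cox5b fell in HD-het (-0.33, edgeR adjusted p = 0.0313), a call that was lost with the offsets. Cox5a was then called higher in HD-het than in control, at 0.43 (edgeR adjusted p = 0.00403). Cox7a2l, which joins complexes III and IV into supercomplexes, fell in both lines, by 0.58 in HD-het and 0.39 in HD-homo on the log2 scale (edgeR adjusted p = 0.000394 and 0.00715).

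Without the offsets the small subunits around the complex IV core were called lower in HD-het or were not called. Cox6b1, which faces cytochrome c and had the highest density of all members in control, counted 616, 513 and 633 CPM in the 3 control libraries, 349, 354 and 329 CPM in HD-het and 454, 584 and 659 CPM in HD-homo. HD-het lay below the other lines (-0.77, edgeR adjusted p = 0.000372). Cox7c counted 130.3, 128 and 124 CPM in the 3 control libraries, 77.9, 81.9 and 89.1 CPM in HD-het and 136, 119 and 128 CPM in HD-homo, with HD-het again below both others (-0.62, edgeR adjusted p = 6.73e-05), but all of its 26-base stretches recur in the genome. Cox8a fell by 0.50 and Cox7b by 0.25 on the log2 scale (edgeR adjusted p = 0.000197 and 0.0124), while Cox6a1 and Cox7a2 stood at -0.045 and -0.17 without a call. With the offsets Cox6b1, Cox7c and Cox8a lost the call, at -0.25 (edgeR adjusted p = 0.0631), -0.017 (edgeR adjusted p = 0.898) and 0.16 (edgeR adjusted p = 0.0576), and Cox7b was called higher at 0.25 (edgeR adjusted p = 0.0118). Cox6a1 and Cox7a2 were then called higher too, at 0.43 (edgeR adjusted p = 0.00462) and 0.34 (edgeR adjusted p = 0.00176). Cox6c and Cox7a2l were the complex IV members whose fall in HD-het was kept.

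The tissue-specific isoforms of complex IV were nearly silent. Cox8b and Cox8c had a count of 0 in all 9 libraries and Cox7b2 had 1 count in all. Cox4i2, the lung isoform of Cox4i1, reached at most 8 counts in a library, and the muscle isoforms Cox6a2 and Cox7a1 at most 9 and 8. Cox6b2, the testis isoform, reached 7. An exception was Ndufa4l2, the hypoxia-inducible relative of Ndufa4, which held 6.49% ± 0.596 (SD, n = 3) of the density of both for control, 6.77% ± 0.920 for HD-het and 6.26% ± 1.16 for HD-homo, with overlapping libraries. Ndufa4l2 was not called without the offsets, and with them it was lower in HD-homo against HD-het, at -0.41 (edgeR adjusted p = 0.0405).

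ATP synthase contributed the most footprints and the clearest contrast between genes of 1 role. The membrane c-ring is built from copies of 1 subunit that 3 genes, Atp5g1, Atp5g2 and Atp5g3, encode. The proteins differ in the import sequence but share their last 78 residues, while the coding bases of that end match by only 84.6% between Atp5g1 and Atp5g2, 78.6% between Atp5g1 and Atp5g3 and 77.4% between Atp5g2 and Atp5g3. The 3 genes can therefore be told apart from each other by footprints that match exactly, while matches with mismatches were not examined. The first 30 bases of the shared end are shown, chosen as the window unspliced in all 3 genes with the most columns that differ. They lie on the minus strand at chr11:96073615-96073644, chr15:102665146-102665175 and chr2:73909276-73909305 of GRCm38.p6, in coding exons. Capitals mark the 11 columns in which the genes are not all the same, and Atp5g1 and Atp5g2 differ from each other in only a few of them.
Atp5g1: atTTCCCgGgacatCgaCacAgcAgccaaG
Atp5g2: atTTCAAgGgacatCgaCacAgcTgccaaG
Atp5g3: atCAGCAgAgacatTgaTacTgcTgccaaA
No 26-base stretch was shared among the coding sequences of these 3 genes. All stretches of Atp5g1 and Atp5g2 do occur elsewhere in the genome outside these genes, and none of Atp5g3 does.

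The c subunit genes had different patterns despite their common product. Atp5g2 counted 347, 364 and 334 CPM in the 3 control libraries, 152, 151 and 164 CPM in HD-het and 439.6, 388 and 426 CPM in HD-homo. Its HD-het libraries were at 0.447 times control (log2 fold change -1.16 ± 0.08 (SE), edgeR adjusted p = 7.62e-07), the largest fall of any member, and HD-homo lay above control (log2 fold change 0.26 ± 0.079 (SE), edgeR adjusted p = 0.0186). Between the mutant lines HD-homo was 2.68-fold higher (log2 fold change 1.42 ± 0.081 (SE), edgeR adjusted p = 7.13e-08). Atp5g1 counted 108, 111 and 104 CPM in the 3 control libraries, 54.0, 57.8 and 60.6 CPM in HD-het and 132, 85.3 and 111 CPM in HD-homo. It fell in HD-het (-0.91, edgeR adjusted p = 0.000144) and did not differ past the threshold in HD-homo (0.028). Atp5g3 counted 496, 524 and 481 CPM in the 3 control libraries, 405, 475 and 430.3 CPM in HD-het and 644, 465 and 544 CPM in HD-homo. It was not called against control, at -0.20 in HD-het and 0.14 in HD-homo (edgeR adjusted p = 0.159 and 0.348). As a result Atp5g3 held 52.8% ± 0.141 (SD, n = 3) of the summed c subunit density for control, 67.5% ± 2.02 for HD-het and 51.4% ± 1.75 for HD-homo. The part of Atp5g2 was 35.5% ± 0.0998, 23.3% ± 1.63 and 38.0% ± 2.61. All 26-base stretches of Atp5g1 and Atp5g2 recur elsewhere in the genome and none of Atp5g3 does. The treatment of reads with several matches is not known. These parts may therefore hold or lack reads of copies. With the offsets the falls of Atp5g2 and Atp5g1 in HD-het were -0.84 (edgeR adjusted p = 6.86e-06) and -0.56 (edgeR adjusted p = 0.00331), and the rise of Atp5g2 in HD-homo was 0.20 (edgeR adjusted p = 0.0508), no longer called.

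**Figure D5:**
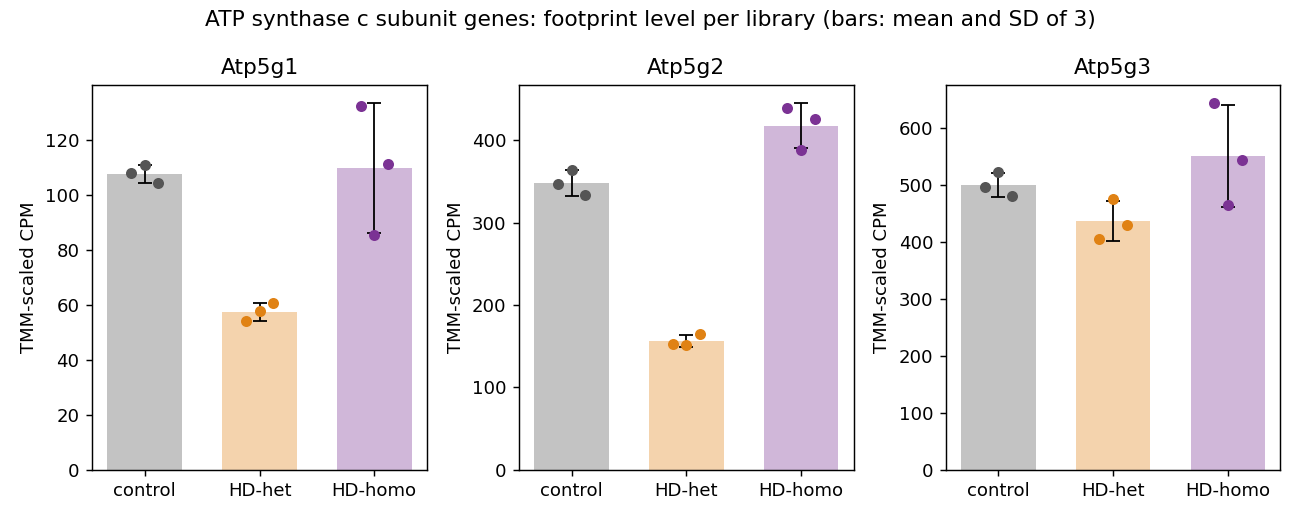
Footprint level of the 3 c subunit genes in TMM-scaled CPM (y axis) in each line (x axis); points are libraries, bars means and error bars SDs of 3 libraries. Atp5g2 in HD-het, at 152, 151 and 164 CPM, lies below every control and HD-homo library, while Atp5g3 was not called in either mutant line against control.

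The catalytic head of ATP synthase is made of alpha (Atp5a1) and beta (Atp5b) subunits around the gamma stalk (Atp5c1). Atp5b counted 2289.8, 2419 and 2345 CPM in the 3 control libraries, 1475, 1648 and 1558 CPM in HD-het and 2023, 1742 and 1585 CPM in HD-homo. It fell in both mutant lines, by 0.59 in HD-het and 0.40 in HD-homo on the log2 scale (edgeR adjusted p = 0.000281 and 0.00537). Atp5c1 went the other way, with 346, 325 and 347 CPM in the 3 control libraries, 362, 367 and 363 CPM in HD-het and 424, 409 and 431 CPM in HD-homo. It rose in HD-homo against control (0.31, edgeR adjusted p = 0.00327), and in HD-het it stood at 0.10 (edgeR adjusted p = 0.219) although the libraries of both lines did not overlap. The density of beta over that of gamma, within each library, was 3.91 ± 0.244 (SD, n = 3) for control, 2.41 ± 0.119 for HD-het and 2.39 ± 0.311 for HD-homo, and every mutant library lay below every control library. Atp5d, the delta subunit at the foot of the stalk, fell in both lines, by 0.93 in HD-het and 0.45 in HD-homo on the log2 scale (edgeR adjusted p = 1.13e-05 and 0.00249). Atp5a1 fell in HD-homo (-0.26, edgeR adjusted p = 0.0281) and stood at -0.20 in HD-het (edgeR adjusted p = 0.0561). Neither side was stable: of 22 alternatives 8 lost the HD-homo call and 10 called HD-het lower, among them the offsets, at -0.26 (edgeR adjusted p = 0.0199). The summed c subunit density over that of beta was 1.51 ± 0.0478 for control, 1.56 ± 0.0117 for HD-het and 2.26 ± 0.270 for HD-homo, the last above both other lines in every library. The limit on reads of copies of Atp5g1 and Atp5g2 holds for this sum too.

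The peripheral stalk holds the head of ATP synthase still. Its subunits b (Atp5f1) and d (Atp5h) fell in HD-het and were called higher again in HD-homo. Atp5f1 counted 421, 419 and 420.4 CPM in the 3 control libraries, 319.7, 301 and 319.6 CPM in HD-het and 432, 432 and 422 CPM in HD-homo. HD-het lay 0.42 below control on the log2 scale (edgeR adjusted p = 0.000267), and HD-homo stood at 0.03. Atp5h counted 307, 278 and 332 CPM in the 3 control libraries, 199, 230.3 and 208 CPM in HD-het and 283, 342 and 348 CPM in HD-homo, with -0.53 in HD-het (edgeR adjusted p = 0.00116), and both falls were kept with the offsets. The oligomycin sensitivity protein Atp5o and coupling factor 6 (Atp5j), which link the stalk to the head, were called in HD-homo instead: they rose against control by 0.20 and 0.23 on the log2 scale (edgeR adjusted p = 0.0444 and 0.0314), calls that were lost with the offsets. With them Atp5j was called higher in HD-het, at 0.34 (edgeR adjusted p = 0.00797).

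Among the small membrane subunits of ATP synthase, Atp5mpl counted 145, 131 and 144 CPM in the 3 control libraries, 73.0, 81.2 and 84.9 CPM in HD-het and 91.1, 109.6 and 122 CPM in HD-homo. It fell in both lines, by 0.81 in HD-het and 0.38 in HD-homo on the log2 scale (edgeR adjusted p = 7.8e-05 and 0.0143), and with the offsets the HD-homo call was kept while HD-het stood at -0.15 (edgeR adjusted p = 0.133), no longer called. Atp5k and Atp5j2 fell in HD-het, by 0.50 and 0.33 (edgeR adjusted p = 0.00734 and 0.0241), without keeping the call. Atp5l and the epsilon subunit Atp5e were not called without the offsets. With them Atp5e was at 0.68 (edgeR adjusted p = 5.98e-05) in HD-het and -0.65 (edgeR adjusted p = 5.81e-05) between the mutant lines, where Atp5l was at -0.52 (edgeR adjusted p = 0.00628). The median log2 fold change of the 17 complex V members in HD-het was -0.33 without and 0.004 with the offsets.

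Across the complexes, the calls fell into a few combinations. The share of all genes with each combination was not computed, so the counts describe the members only and set them apart from no background. The largest combination held 26 members that were lower in HD-het than in both other lines, among them Cyc1, Cycs, Cox6c, Uqcrfs1, Ndufv1 and Ndufb9. With the offsets 11 of the 26 kept both calls, and Cycs did not. A second group of 7, which included Cox5a, Ndufa3, Ndufc2, Sdha and Uqcrc2, was lower in HD-homo than in both other lines, and all 7 kept both calls with the offsets. Of the 11 members with at least 1000 coding nt, 6 fell in HD-homo against control and only Ndufv3 rose, while of the 68 shorter ones 11 fell and 13 rose. That length boundary was set after the values were seen, and no share over all genes was taken at it. Ndufv3 is among the longer members by its longest coding sequence. Another 5 members, Atp5b, Cox7a2l, Ndufb10, Ndufv2 and Uqcr10, were lower in both mutant lines with no call between them, of which Atp5b, Cox7a2l and Ndufb10 kept both calls with the offsets, and 16 members, among them Cox4i1, Sdhb, Sdhc and Sdhd, were called in no comparison without the offsets. With them 13 of these 16 were called in some comparison.

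Many OXPHOS promoters are known to bind the factor NRF1, so its palindromic motif GCGCANGCGC (GCGCNTGCGC on the other strand, the same site where both read GCGCATGCGC) was searched from 250 bases before to 50 after the RefSeq gene start in GRCm38.p6. A promoter was listed for 69 members, and 17 of them (24.6%) held the motif, against 5.19% of 27025 genes with a promoter. Among tested genes the motif was in 26.2% of 65 members and 11.7% of 10078 genes, so genes with footprints held it more often whatever their function. A match is a description of the letters, not a binding site. Sites of 3 members described above are shown with the motif in capitals, at chr15:102671075-102671094, chr6:24527702-24527721 and chr2:10080435-10080454, all on the minus strand and upstream of the gene start.
Atp5g2: cggccGCGCATGCGCagagc
Ndufa5: gagctGCGCAGGCGCaaatc
Atp5c1: ctcccGCGCACGCGCactga
In HD-het against control 6 of the 17 members with the motif fell and none rose, and of the 48 tested members with a promoter but no motif 28 fell and 4 rose. Over all genes 29.1% fell and 31.0% rose in that comparison. In HD-homo against control 7 members with the motif rose and 2 fell, beside 6 and 10 without it, where 23.3% of all genes rose and 22.3% fell. These counts are small, and Atp5g2 and Atp5o lose their call with the offsets. The members with the motif that rose were Atp5g2, Ndufa5, Ndufs5, Ndufs6, Ndufa8, Atp5o and Atp5c1. The 2 that fell were Sdha, at -0.54, and Ndufa11, at -0.31. All 3 sites shown belong to members that rose, and they do not stand for the others.

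Genes that serve the same pathway without being subunits were followed as lists. Of 48 assembly factors, which build the complexes, 18 fell and 7 rose in HD-het against control, with a list median of -0.12. Over all tested genes 29.1% fell and 31.0% rose in HD-het, and 22.3% and 23.3% in HD-homo, which is the background of every list here. In HD-homo 13 rose and 4 fell, with a median of 0.15. Uqcc1, a complex III assembly factor, rose in both lines, by a log2 fold change of 0.82 (edgeR adjusted p = 3.38e-05) for HD-het and 0.94 (edgeR adjusted p = 1.44e-05) for HD-homo. Cox20, which handles the mitochondrially made subunit 2 of complex IV, rose in HD-het by 1.35 (edgeR adjusted p = 1.68e-06), and Cox14, which accompanies its subunit 1, fell at -0.97 (edgeR adjusted p = 7.16e-05). With the length and GC offsets 12 assembly factors were higher and 13 lower in HD-het, 10 and 4 in HD-homo, and Cox14 lost its call, at -0.30 (edgeR adjusted p = 0.082).

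In the tricarboxylic acid cycle, which feeds the chain, calls against control ran mostly downward. Of 14 genes 8 fell and 0 rose in HD-het, and 8 fell and 0 rose in HD-homo against control. Its medians were -0.29 and -0.33. With the offsets 8 were lower in HD-het and 9 in HD-homo, with 0 and 1 higher. Citrate synthase (Cs), the entry enzyme, fell in both, with -0.78 (edgeR adjusted p = 4.2e-05) in HD-het and -0.74 (edgeR adjusted p = 7.6e-05) in HD-homo. Suclg2, a subunit of GTP-forming succinyl-CoA ligase, fell in HD-het with -1.31 (edgeR adjusted p = 3.22e-07). Of the 6 tested carriers and channels 4 fell in HD-het and 2 in HD-homo, and none rose, and with the offsets 4 were lower in each line. The phosphate carrier Slc25a3, which supplies ATP synthase, was at -0.95 (edgeR adjusted p = 4.25e-06) in HD-het and -0.24 (edgeR adjusted p = 0.0366) in HD-homo. Of 16 tested regulators of mitochondrial biogenesis 5 fell and 1 rose in HD-het, among them Tfam, the packaging factor of mitochondrial DNA, at -0.57 (edgeR adjusted p = 0.000136). In HD-homo 2 of these regulators rose and 3 fell. With the offsets 8 fell and 1 rose in HD-het, and 5 fell and 2 rose in HD-homo. Coenzyme Q synthesis, with 12 genes tested, had 1 that rose and 2 that fell in HD-het and 2 and 1 in HD-homo. With the offsets these counts were 2 and 3 in HD-het and 1 and 2 in HD-homo.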

How the data were processed

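Footprints were counted by the authors and deposited as 1 table of raw counts per gene symbol for 9 libraries, 3 each of control, HD-het and HD-homo, taken from the labels. The submitters' processing notes name cutadapt, Bowtie 1.0.1 and mm10. The counting program, annotation, strand and treatment of reads with several matches are not given in the sources used here, so that reads of near-identical copies may be counted in part, and footprints of repeats or pseudogenes cannot be separated. Of 36410 rows, 19597 were at 0 in every library. Totals ran from 22504543 to 41888701 counts.

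All 9 libraries were fitted together in edgeR 4.0.16, under R 4.3.3 and with limma 3.58.1, by its quasi-likelihood test after filterByExpr and TMM scaling, with Benjamini-Hochberg adjustment over 12678 genes and a threshold of 0.05. The fit was tested on simulated data. DESeq2 1.42.0 was an alternative, as were other scalings, filters, thresholds, a replicate block, leaving out libraries, and offsets that take out each library's loess trend (span 0.5) on coding length and GC, fitted on the 12448 genes with a length. Rows under an older symbol of a gene that has its own row numbered 283, held 0.222% of counts and included no member.

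Coding length and GC came from the longest coding sequence per symbol in GENCODE M21 on GRCm38.p6, the mm10 build. Promoters and their coordinates came from RefSeq, in which all 87 members matched by symbol. Density is CPM per coding kilobase, on library totals without TMM scaling. Uniqueness is the share of a member's 26-base coding stretches found anywhere else in the genome, on either strand. It was 0 for 28 of 86 members and had a median of 6.46%. For 19 members most stretches were found elsewhere, and their counts may hold reads of copies. Among them were Atp5h (88.0%), Ndufs5 (82.9%), Ndufa12 (77.7%), Ndufs3 (72.1%), Cox6c (70.4%), Atp5f1 (65.5%) and Cox7a2l (64.7%).

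Named by rule were, in each complex and comparison, the called member with the largest rise and fall among those with at least 10 CPM, the nuclear-encoded core subunits, the isoform families, and at most 2 genes each way per companion list. Other members are given to account for the set and were chosen after their values were seen. The members and lists were chosen with earlier results of these data known, so lists are described by counts and medians with no test. Sequences of proteins and the mitochondrially encoded subunits were not used here. The values of 1 core subunit are not reported here.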

Additional observations from a re-analysis of the deposited data

Results flagged for a closer look

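Members were looked at again where the calls of HD-het and HD-homo against control had opposite directions and the difference between both lines, tested in the same edgeR fit, passed the threshold. There were 4, each lower in HD-het and higher in HD-homo than in control. The share of all genes with such calls was not computed. The log2 fold change of HD-homo against HD-het was 1.42 for Atp5g2, 0.92 for Ndufs4, 0.88 for Ndufb7 and 0.76 for Ndufa5, with edgeR adjusted p-values of 7.13e-08, 2.54e-06, 1.51e-05 and 2.6e-05. With length and GC offsets these differences stayed called, at 1.04 (edgeR adjusted p = 7.91e-07), 0.56 (edgeR adjusted p = 0.000197), 0.48 (edgeR adjusted p = 0.000589) and 0.22 (edgeR adjusted p = 0.0188) in the same order. Of the 4, Ndufs4 alone also kept both calls against control.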

How the results depend on the processing

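The length of coding sequences was the choice that mattered most. With offsets for length and GC the members numbered 26 higher and 21 lower in HD-het against control (median 0.046), 10 and 18 in HD-homo against control (median -0.060) and 17 and 38 in HD-homo against HD-het (median -0.14). Offsets for length alone, an alternative chosen after seeing the data, gave 28 and 19 (median 0.047) for HD-het against control, a median of -0.062 for HD-homo against control, and 16 and 36 (median -0.15) between the mutant lines, while GC alone, also added later, left the HD-het median at -0.24 with 41 members lower, among them all 38 that fell without it. Among members named by rule, those that reversed in HD-het against control with both offsets were at 0.046 for Cox5b, 0.43 for Cox6a1, 0.34 for Cox7a2, 0.25 for Cox7b, 0.16 for Cox8a, 0.29 for Ndufa4 and 0.41 for Uqcrb, and with length alone at 0.032 for Cox5b, 0.37 for Cox6a1, 0.36 for Cox7a2, 0.29 for Cox7b, 0.10 for Cox8a, 0.33 for Ndufa4 and 0.40 for Uqcrb. In HD-homo against HD-het those named by rule with both offsets were at -0.092 for Atp5g3, -0.12 for Cox5b, -0.47 for Cox6a1, -0.50 for Cox7a2, -0.27 for Cox7a2l, -0.44 for Cox7b, -0.20 for Cox8a, -0.37 for Ndufa4, -0.41 for Ndufa4l2, -0.29 for Sdhc and -0.12 for Uqcrb, and with length alone at -0.080 for Atp5g3, -0.14 for Cox5b, -0.50 for Cox6a1, -0.51 for Cox7a2, -0.25 for Cox7a2l, -0.40 for Cox7b, -0.22 for Cox8a, -0.35 for Ndufa4, -0.45 for Ndufa4l2, -0.33 for Sdhc and -0.042 for Uqcrb. Members outside that rule turned as well, such as Uqcr10, which was called higher in HD-het with both offsets, and Atp5mpl, Ndufb2 and Ndufb3, which were called lower in HD-homo against HD-het. The cause of the trend was not tested.

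No pairing of the samples by the replicate numbers of the labels was seen. Same-numbered libraries deviated from their line means with correlations of -0.36 to 0.17 over genes, and different-numbered ones with -0.28 to 0.38. With 3 libraries per line the deviations sum to 0 within a line, so this check cannot exclude pairing. With the replicate block 4 members rose and 37 fell in HD-het, 14 and 14 in HD-homo against control, and 38 were higher and 8 lower in HD-homo than in HD-het. The replicate block with both offsets gave 26 and 19 (median 0.041), 8 and 16 (median -0.061) and 16 and 33 (median -0.14). Among members named by rule, those reversed by it in HD-het against control were at 0.041 for Cox5b, 0.43 for Cox6a1, 0.34 for Cox7a2, 0.25 for Cox7b, 0.16 for Cox8a, 0.29 for Ndufa4 and 0.41 for Uqcrb, and in HD-homo against HD-het at -0.10 for Atp5g3, -0.12 for Cox5b, -0.47 for Cox6a1, -0.50 for Cox7a2, -0.27 for Cox7a2l, -0.44 for Cox7b, -0.20 for Cox8a, -0.37 for Ndufa4, -0.41 for Ndufa4l2, -0.29 for Sdhc and -0.12 for Uqcrb.

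Other choices moved less. The HD-het median was -0.19 with RLE size factors, -0.26 with total counts, -0.24 with no filter and -0.18 with at least 10 counts in every library. The median of HD-homo against control was 0.035 with total counts, and that of HD-homo against HD-het 0.30 with total counts, 0.19 with at least 10 counts in every library and 0.19 with only the 6 libraries compared. An adjusted p below 0.01 left 2 risers in HD-het and 7 risers and 9 fallers in HD-homo against control. A change of at least 2-fold left 1 higher and 1 lower, 1 and 0, and 2 and 0 members in the 3 comparisons. DESeq2 called 5 higher and 38 lower, 15 and 19, and 40 and 11. On TMM-scaled totals the HD-het share of all members was 1.43%, of complex I 0.337% and of complex IV 0.313%. Per transcript length the control densities were 99.0, 49.7, 242, 137, 429 and 326 CPM per kb for complexes I, II and III, cytochrome c and complexes IV and V. Of 2640 values of single named members under all alternatives, 2415 kept their call or the lack of one. Among these, values called in neither fit could change sign. Atp5g3 did so in HD-het against control, from -0.20 to 0.10 with the length and GC offsets.

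Leaving out each library in turn gave 2 to 5 members higher and 33 to 40 lower in HD-het against control (median -0.23 to -0.21), 7 to 15 and 12 to 17 in HD-homo against control (median -0.037 to 0.029), 34 to 42 and 8 to 11 between the mutant lines (median 0.21 to 0.26) and 52 to 60 that differed among the lines. The risers in HD-het numbered 2 without control replicate 2 or HD-het replicate 1, and those in HD-homo against control 7 without control replicate 1 and 9 without control replicate 2 or 3. Depth limited the 7 isoforms that were not tested, while every tested member had at least 132 counts in each library.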
